A study of Mus musculus with 14 samples.

Results

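The genes described here are 8 members of the Bcl2 family, of 21631 protein-coding genes in the RefSeq annotation of GRCm38.p6 (mm10). Bcl2, Bcl2l1 and Mcl1 keep cells alive and are called survival genes, while Bcl2l11, Bid, Bax, Bak1 and Bbc3 promote cell death and are called death genes. The locus of a gene was its body with 50 kb on either side, and a peak belonged to a locus if its midpoint lay there. The 8 loci held 538 of 279955 peaks from 13 transcription factors. Peaks that touched or overlapped were merged into regions, of which 196 of 121980 had their midpoint in these loci.

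The cells were Hoxb8-FL, a mouse progenitor line that the labels call LMPP-like (resembling lymphoid-primed multipotent progenitors), grown untreated in medium with estradiol and FLT3 and fixed in formaldehyde at 0.4% or 1% for ChIP-seq. Each of the factors Spi1, Fli1, Erg, Cebpa, Cebpb, Tal1, Lyl1, Lmo2, Runx1, Meis1, Gata2, Gfi1 and Gfi1b had 1 library and 1 peak list, and no peak list of the rabbit IgG library was analysed here. There was therefore no replicate error, no difference was tested, and values are descriptions of these libraries. The lists give positions 400 bp wide without counts, so depth is unknown. They range from 3217 peaks for Gata2 to 76378 for Spi1, and no expression was measured, so the label of the cells could not be checked against marker genes.

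The Bcl2 family controls the permeability of the outer mitochondrial membrane. Bax and Bak1 form pores through which cytochrome c escapes and starts the caspase cascade. Bcl2, Bcl2l1 (Bcl-xL) and Mcl1 hold Bax and Bak1 in check. Bcl2l11 (Bim), Bid and Bbc3 (Puma) are BH3-only proteins, which bind the survival proteins and help to activate Bax and Bak1. Blood progenitors depend on survival proteins, Mcl1 above all, and Bim limits blood cells when cytokines are withdrawn.

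All 8 loci held more peaks per 100 kb than the median gene, but not all held more factors. A factor had a peak in 93 of the 104 combinations of factor and gene, or 89.4%, against 57.6% over all protein-coding genes. The median locus of the 8 held 12 factors and 63.5 peaks, against 9 factors and 21 peaks over all genes. Because the loci differ in length, density is the fairer measure. It ran from 36.6 peaks per 100 kb at Bcl2l1 to 57.3 at Bbc3, with a median of 51.9, against 15.8 over all genes. Of all genes 16.9% were as dense as Bcl2l1 or denser, and 14.7% as dense as Bax. At 5 of the 8 loci 12 or more factors had a peak, as at 21.9% of all loci. Bax held 9, no more than the median, and 51.1% of all genes held as many or more. For the 10 factors of Mcl1 this was 42.5%. Bcl2l11, Bak1 and Bbc3 held all 13, which 5.99% of all loci did. Much of this came from the flanks, since in gene bodies alone Bcl2l11 and Bak1 held 6 factors each and Bbc3 8. With 10 kb on either side Bak1 held 7, and for peaks nearest to the member Bak1 held 6 and Bbc3 8.

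**Figure D1:**
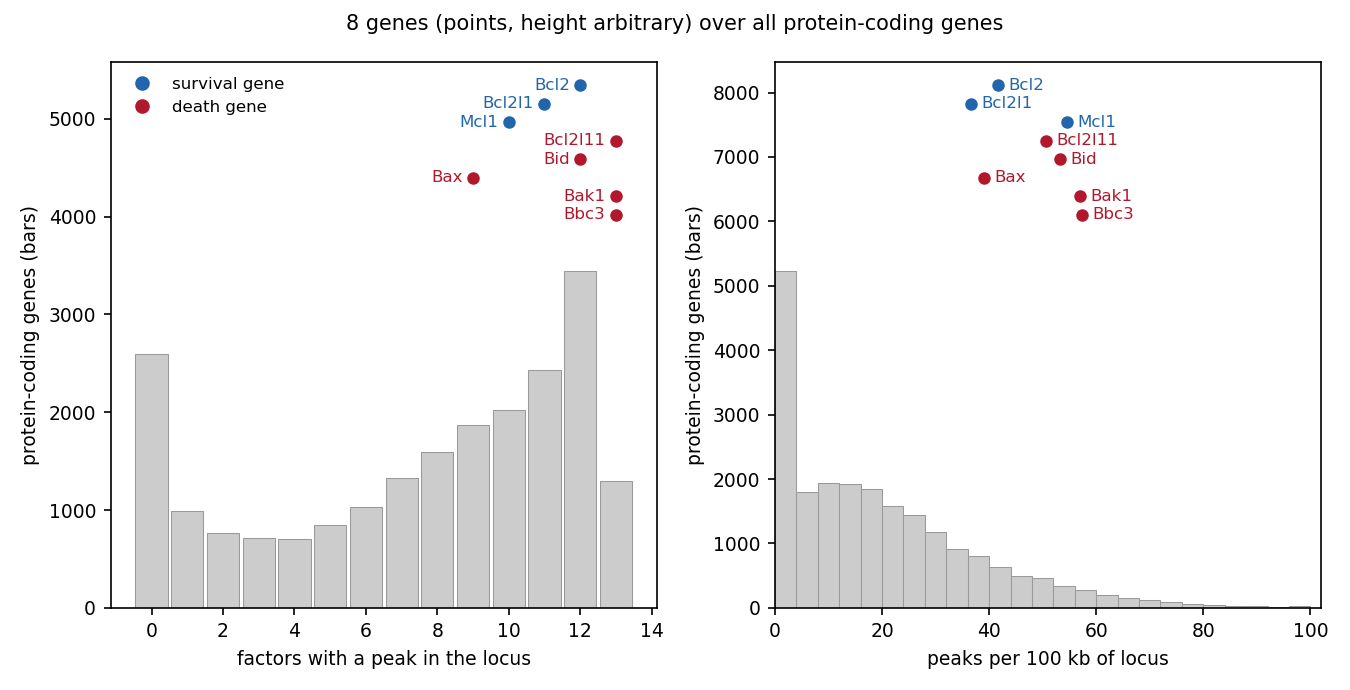
Number of factors with a peak in the locus (left) and peaks per 100 kb of locus (right) for the 3 survival genes (blue points) and 5 death genes (red points), over all 21631 protein-coding genes (grey bars, with densities above 100 in the last bar). The height of a point has no meaning. The 8 genes lie between 9 and 13 factors and between 36.6 and 57.3 peaks per 100 kb.

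Factors with long lists were present at every member. Spi1 (PU.1), an ETS factor of myeloid and lymphoid development, had 10 to 27 peaks at each locus, with a median of 16, and was present at 84.7% of all loci. Cebpa and Cebpb, C/EBP factors of granulocytes and monocytes, had 5 to 19 peaks each and were present at 74.3% and 75.5% of all loci. The ETS factor Fli1 had 4 to 9 peaks (69.7% of all loci), and Lmo2, a bridging protein that binds DNA through partners, had 5 to 11 (69.0%). These factors are common at most genes, so their presence at all 8 says little about the family.

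Shorter lists also reached all 8 loci. Runx1 had 1 to 6 peaks per locus, against 56.8% of all loci with any. Tal1, a basic helix-loop-helix factor, had 1 to 6 (56.8% of all loci), and its relative Lyl1 had 1 to 5 (40.5%). The ETS factor Erg had 1 to 4 (51.7%). Meis1, a homeobox factor, missed Bax alone and so had a peak at 7 of 8 loci, against 50.6% of all loci.

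The remaining 3 lists were patchier. Gfi1, a zinc finger repressor, had a peak at 6 of 8 loci (49.1% of all loci) and its relative Gfi1b at 5 of 8 (46.5%). Neither had a peak at Mcl1 or Bax. Gata2, a GATA factor needed by blood stem cells and the one with the shortest list, had a peak at 3 of 8 loci, against 23.2% of all loci. These were Bcl2l11, Bak1 and Bbc3, with 1 peak each.

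**Figure D2:**
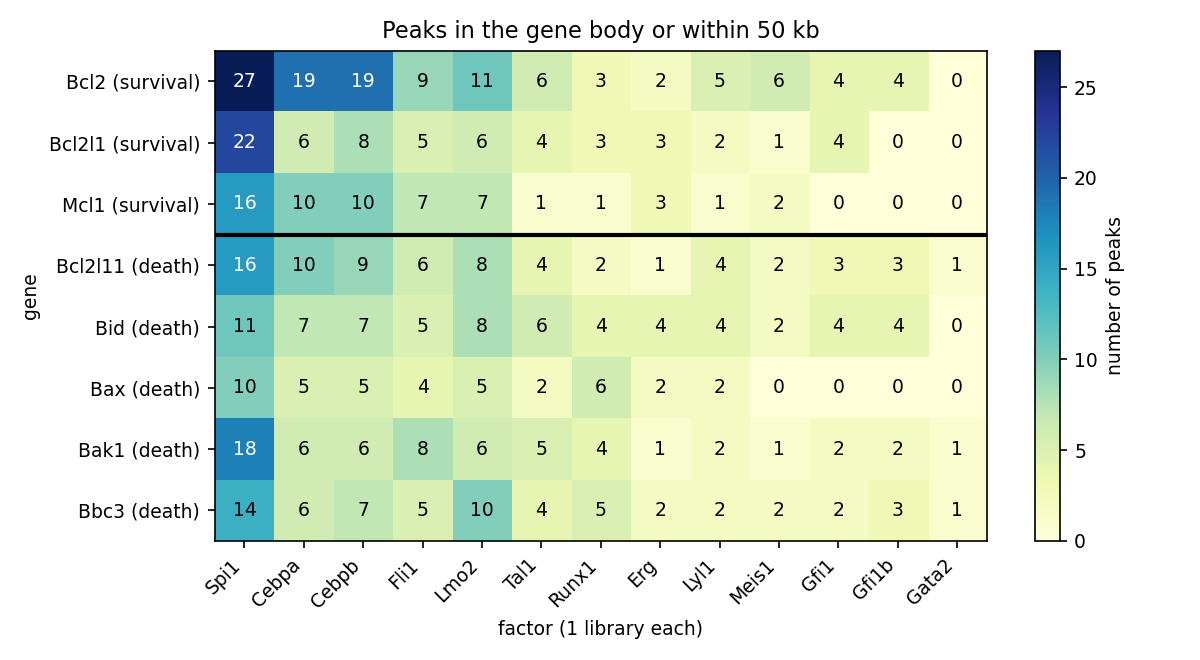
Number of peaks of each of the 13 factors (columns, 1 library each) in the loci (bodies with 50 kb on either side) of the 8 genes (rows, survival genes above the line and death genes under it). Spi1 runs from 10 peaks at Bax to 27 at Bcl2, and Gata2 has 1 peak at each of Bcl2l11, Bak1 and Bbc3.

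Bcl2, the founding survival gene of the family, lies on the minus strand of chromosome 1 (chr1:106538176-106714290, 176.1 kb). Its locus held 115 peaks of 12 factors in 41 regions, with Gata2 missing. Spi1 had 27 peaks there, Cebpa and Cebpb 19 each, Lmo2 11, Fli1 9, Meis1 and Tal1 6 each, Lyl1 5, Gfi1 and Gfi1b 4 each, Runx1 3 and Erg 2. The Bcl2 counts were the highest of the 8 genes for Spi1, Cebpa, Cebpb, Lmo2, Fli1, Lyl1 and Meis1, and those of Tal1, Gfi1 and Gfi1b equalled the highest. Bcl2 is also by far the longest of the 8 genes. Per length its 41.6 peaks per 100 kb were only the sixth of 8, and 12.5% of all genes had as many or more.

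Most binding at Bcl2 lay far from its start site. The region with the most factors, chr1:106515611-106516105, lay 22.3 kb beyond the end of the gene and 198 kb from its start site. It held 10 factors, lacking Erg, Gata2 and Gfi1b. A neighbouring region with 9 factors (chr1:106517559-106518206) lay 20.3 kb beyond the end of the gene, and one with 6 factors (chr1:106511576-106512140) lay 26.3 kb beyond it. Inside the gene the most shared region was chr1:106627244-106627743, with 8 factors, 86.8 kb from the start site. Within 1 kb of the start site only Cebpb, Fli1 and Spi1 had a peak. In a window of 50 kb on either side of the start site, chosen after the data were seen, Bcl2 held 7 factors and 21 peaks, and 40.4% of genes with a start site in the table had as many peaks or more.

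Bcl2l1, whose protein Bcl-xL protects erythroid cells and platelets, lies on the minus strand of chromosome 2 (chr2:152758732-152833803, 75.1 kb). Its locus held 64 peaks of 11 factors, with Gata2 and Gfi1b missing. Spi1 had 22 peaks, Cebpb 8, Cebpa and Lmo2 6 each, Fli1 5, Gfi1 and Tal1 4 each, Erg and Runx1 3 each, Lyl1 2 and Meis1 1. Its most shared region, chr2:152788786-152789940, lay inside the gene and 39.1 kb from the nearest of its 3 start sites. It held 11 factors, all but Gata2 and Gfi1b, over 1155 bp. A region with 10 factors, chr2:152741460-152742018, lay 17.0 kb beyond the end of Bcl2l1, but its nearest gene was Id1, an inhibitor of E proteins, at 4.33 kb.

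The listed start sites of Bcl2l1, all more than 1 kb inside the gene boundaries, differed. A region with 6 factors (Cebpa, Cebpb, Erg, Fli1, Runx1 and Spi1) spanned the outermost, and no factor had a peak within 1 kb of the innermost. Promoter windows of 300 bases (250 before to 50 after each start site) came from RefSeq on GRCm38.p6 and were searched on both strands for the ETS core CGGAAG. The window of the outermost start site holds it after the start, and peaks of Cebpa, Cebpb, Erg, Fli1 and Spi1 overlapped that window. The window of the middle start site holds it too, starting at 103 bases before the start. No peak overlapped that window, although 5 factors had a peak within 1 kb of the middle start site. The 30 bases that hold the core at the outermost start site (chr2:152831679-152831708, minus strand) are shown with the core in capitals.
Bcl2l1: gcgctgccgcggcacCGGAAGtggctgcgc

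Mcl1, a short-lived survival protein, has a short gene on the plus strand of chromosome 3 (chr3:95656944-95663179, 6.24 kb). Its locus held 58 peaks of 10 factors, with Gata2, Gfi1 and Gfi1b missing. Spi1 had 16 peaks, Cebpa and Cebpb 10 each, Fli1 and Lmo2 7 each, Erg 3, Meis1 2, and Lyl1, Runx1 and Tal1 1 each. At 54.6 peaks per 100 kb it was the densest of the 3 survival loci, and 5.25% of all genes had as many or more. No region there held more than 6 factors. The most shared were chr3:95650575-95651023, 7.92 kb before the start site, and chr3:95645234-95645689, 13.3 kb before it. Both held Cebpa, Cebpb, Fli1, Lmo2 and Spi1, and Meis1 joined them in the region nearer to the start site and Erg in the farther one.

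ETS and Runx1 peaks sat on the only listed start site of Mcl1, which lies inside the gene boundaries. The region chr3:95658452-95658942, centred 0.024 kb before the start site, held Erg, Fli1, Lmo2, Runx1 and Spi1 and no C/EBP factor. Another region, chr3:95659391-95659809, lay 0.879 kb after the start site and held Erg, Fli1, Lmo2, Lyl1 and Tal1. The 250 bases before the start site (chr3:95658471-95658720, plus strand), all inside the first of these regions, hold CGGAAG at 2 places, in capitals, starting at 86 and 62 bases before the start site.
Mcl1: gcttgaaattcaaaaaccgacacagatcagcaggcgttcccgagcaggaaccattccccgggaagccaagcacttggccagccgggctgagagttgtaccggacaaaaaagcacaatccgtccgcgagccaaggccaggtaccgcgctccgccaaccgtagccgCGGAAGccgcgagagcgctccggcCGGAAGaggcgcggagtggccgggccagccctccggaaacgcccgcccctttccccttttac

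The ETS core was found in 17.0% of 32619 promoter windows. Windows that hold it had an Fli1 peak over them in 47.1% of cases, against 8.34% of windows without it, and a Spi1 peak in 41.5% against 13.4%. Runx1, which is not an ETS factor, had one in 27.1% against 7.21%, so the difference was not limited to ETS factors. Among the members, windows of Bcl2l1, Mcl1 and Bcl2l11 hold the core. Those of Bcl2, Bid, Bax, Bak1 and Bbc3 do not, although an Fli1 peak overlapped that of Bcl2. Windows of 1 gene can overlap and share peaks, and a match is a description of letters, not a shown binding site.

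Bcl2l11, which encodes Bim, lies on the plus strand of chromosome 2 (chr2:128126038-128162547, 36.5 kb). Its locus held 69 peaks of all 13 factors, at 50.5 per 100 kb. Spi1 had 16 peaks, Cebpa 10, Cebpb 9, Lmo2 8, Fli1 6, Lyl1 and Tal1 4 each, Gfi1 and Gfi1b 3 each, Meis1 and Runx1 2 each, and Erg and Gata2 1 each. Its most shared region, chr2:128203722-128204454, lay 41.5 kb beyond the end of the gene. It held 9 factors (Cebpa, Cebpb, Fli1, Gata2, Lmo2, Lyl1, Meis1, Runx1 and Tal1) and was the only one of the 3 Gata2 regions at the 8 loci with any other factor.

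The 2 start sites of Bcl2l11 together had peaks of 8 factors within 1 kb, more than at any other member. Taken singly, the first had 7 and the second 3, and the 1 start site of Mcl1 also had 7. The region chr2:128125513-128126290 held Cebpb, Erg, Fli1, Gfi1, Lmo2, Runx1 and Spi1 over the first of 2 start sites, and Gfi1 and Gfi1b shared a region 0.602 kb after the second. By the gene table the region over the first start site lies inside the neighbour Acoxl. The 250 bases before that start site (chr2:128125788-128126037, plus strand) hold the ETS core on the minus strand and, nearer to the start, the Gfi letters AATCACNGC on the minus strand, both in capitals. The Gfi letters were found in 0.926% of promoter windows, and this was their only match in the 13 windows of the 8 genes.
Bcl2l11: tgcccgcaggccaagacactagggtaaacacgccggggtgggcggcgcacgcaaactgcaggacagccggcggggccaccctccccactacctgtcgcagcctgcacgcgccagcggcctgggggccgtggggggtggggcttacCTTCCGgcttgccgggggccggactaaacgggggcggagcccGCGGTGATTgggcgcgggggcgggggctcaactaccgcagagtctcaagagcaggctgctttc

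Bid, a BH3-only protein that links death receptors to mitochondria, lies on the minus strand of chromosome 6 (chr6:120893119-120917062, 23.9 kb). Its locus held 66 peaks of 12 factors in only 15 regions, with Gata2 missing, at 53.2 peaks per 100 kb. Spi1 had 11 peaks, Lmo2 8, Cebpa and Cebpb 7 each, Tal1 6, Fli1 5, Erg, Gfi1, Gfi1b, Lyl1 and Runx1 4 each, and Meis1 2. The most shared region, chr6:120955140-120955634, held 11 factors, all but Gata2 and Meis1, and a region with 10 factors lay beside it (chr6:120956235-120957183). Both lay inside the neighbour Mical3, 38.6 and 39.9 kb before the start site of Bid. Inside Bid, chr6:120914591-120915551 held 9 factors 1.75 kb after the start site, and 2 further regions held 7 factors each. Within 1 kb of the start site only Spi1 had a peak. The Bid locus also reaches into Bcl2l13, another member of the family.

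Bax, a pore-forming effector, lies on the minus strand of chromosome 7 (chr7:45461695-45466903, 5.21 kb) in a crowded locus with 8 other protein-coding genes. The locus held 41 peaks of 9 factors, the fewest of the 8 genes by either count, with Gata2, Gfi1, Gfi1b and Meis1 missing. Spi1 had 10 peaks, Runx1 6, Cebpa, Cebpb and Lmo2 5 each, Fli1 4, and Erg, Lyl1 and Tal1 2 each. Runx1 thus had more peaks at Bax than at any other member. The most shared region, chr7:45510292-45510797, held 8 factors but lay 43.6 kb away inside Tulp2. The most shared region whose nearest gene was Bax, chr7:45460903-45461507, held 7 factors 0.490 kb beyond its end. At the start site Runx1 and Spi1 had a peak each, and inside the gene there was no other.

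Bak1, the other pore-forming effector, lies on the minus strand of chromosome 17 (chr17:27019812-27028627, 8.82 kb). Its locus held 62 peaks of all 13 factors, at 57.0 per 100 kb. Spi1 had 18 peaks, Fli1 8, Cebpa, Cebpb and Lmo2 6 each, Tal1 5, Runx1 4, Gfi1, Gfi1b and Lyl1 2 each, and Erg, Gata2 and Meis1 1 each. Few of these lay near the gene: only 3 of its 26 regions had Bak1 as nearest gene. The most shared region, chr17:26980980-26981520, held 8 factors, 38.6 kb beyond the end of Bak1 and nearest to Zbtb9. Inside the gene, chr17:27025924-27026387 held Cebpa, Cebpb, Fli1, Lmo2 and Tal1, 2.47 kb after the start site.

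Bak1 was the only member with no peak of any factor within 1 kb of a start site, although a Spi1 region centred 1.05 kb after it lay just outside. The 250 bases before its start site (chr17:27028628-27028877, minus strand) hold the Runx letters TGTGGT and, as their reverse complement, the PU.1 letters GAGGAAG, in capitals, without a Runx1 or Spi1 peak over them. Over all promoter windows 16.6% hold the Runx letters and 13.4% the PU.1 letters.
Bak1: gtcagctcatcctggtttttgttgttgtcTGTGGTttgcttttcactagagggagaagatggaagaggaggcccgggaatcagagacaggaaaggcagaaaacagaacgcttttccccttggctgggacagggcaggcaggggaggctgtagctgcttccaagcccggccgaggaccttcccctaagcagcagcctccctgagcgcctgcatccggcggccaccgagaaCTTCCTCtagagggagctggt

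Bbc3, a BH3-only protein known as a target of p53, lies on the plus strand of chromosome 7 (chr7:16308398-16318334, 9.94 kb). Its locus held 63 peaks of all 13 factors, at 57.3 per 100 kb. Spi1 had 14 peaks, Lmo2 10, Cebpb 7, Cebpa 6, Fli1 and Runx1 5 each, Tal1 4, Gfi1b 3, Erg, Gfi1, Lyl1 and Meis1 2 each, and Gata2 1. Its most shared region, chr7:16294787-16295287, held the same 11 factors as that near Bid and lay 14.5 kb before the first start site, with Ccdc9 as the nearest gene at 8.23 kb. A region inside the boundaries of Bbc3 but 0.877 kb before its first listed start site, chr7:16308432-16308981, held Cebpa, Cebpb, Lmo2, Meis1, Spi1 and Tal1. Meis1 was thus within 1 kb of the start site of Bbc3 and of no other member, against 2.43% of all genes.

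**Figure D3:**
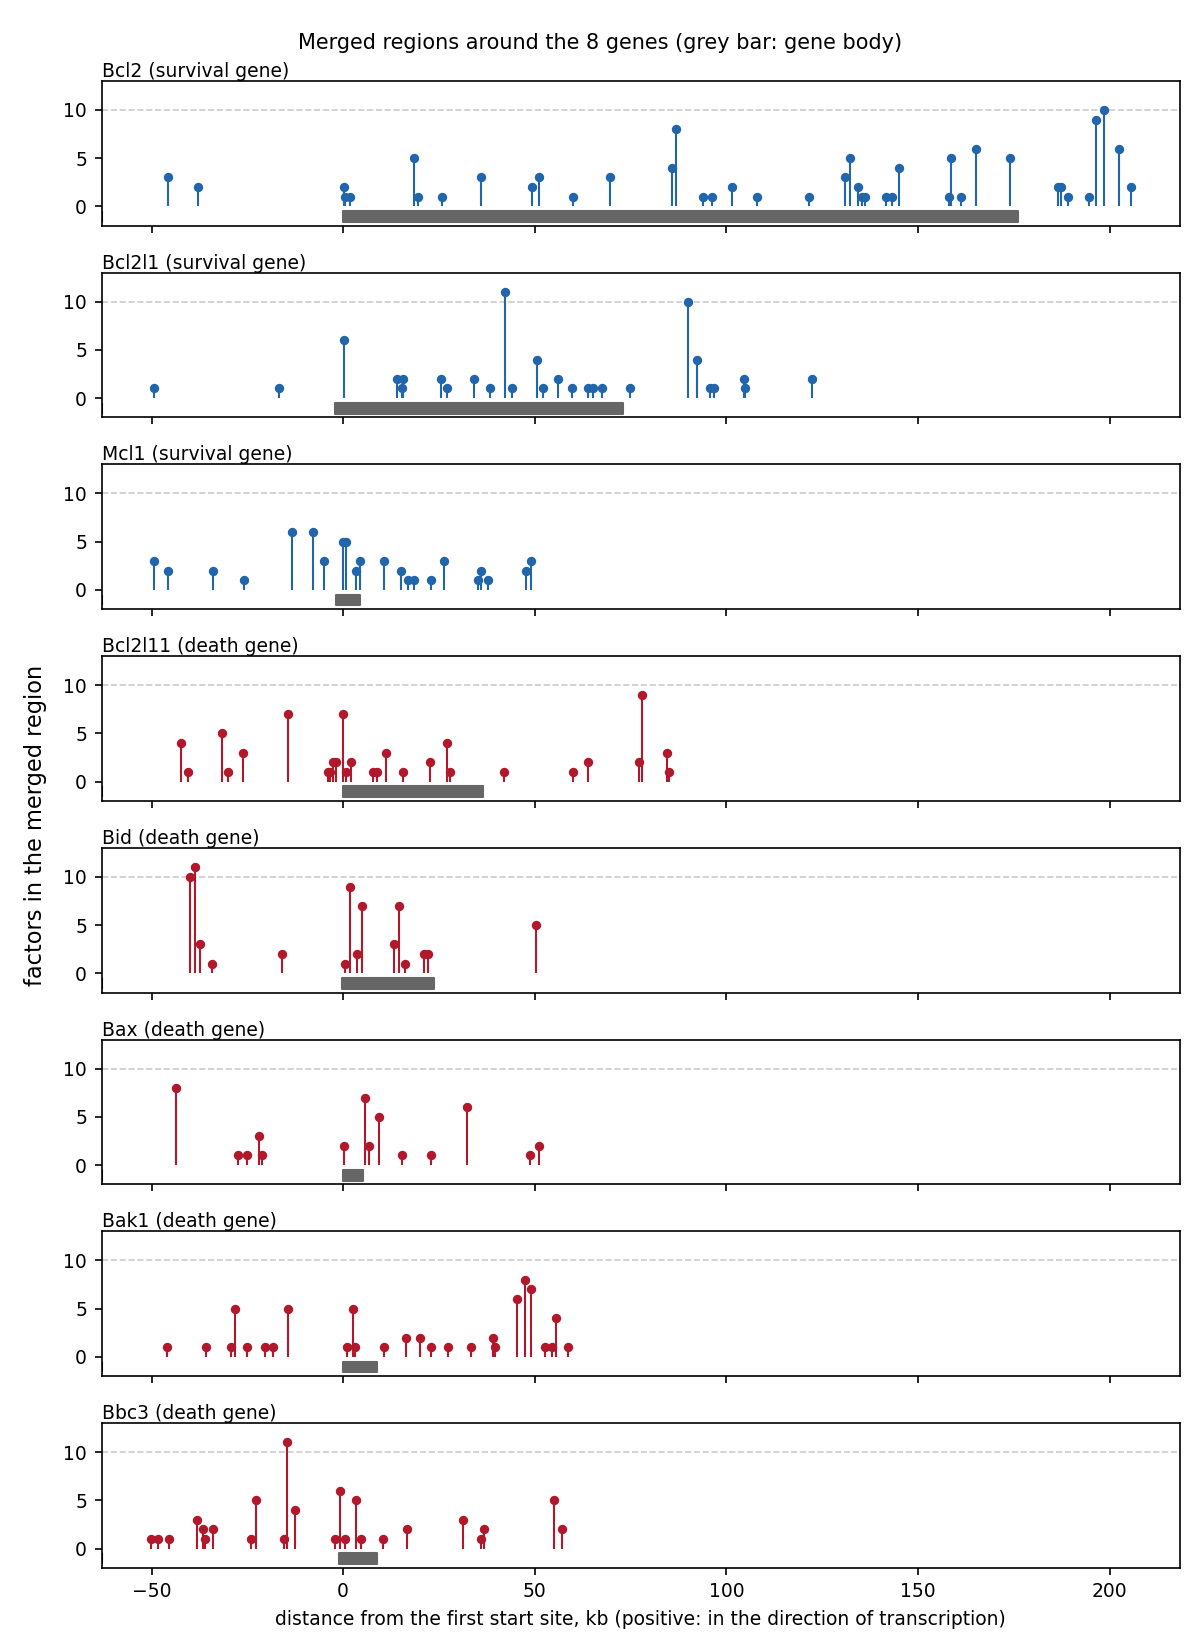
Merged regions in the 8 loci, by distance in kb from the outermost start site (horizontal, positive in the direction of transcription) and by number of factors (vertical, with a dashed line at 10). Grey bars are gene bodies. The 6 regions with 10 or more factors lie at Bcl2 (1), Bcl2l1 (2), Bid (2) and Bbc3 (1).

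Regions with 10 or more factors were present at 4 of the 8 loci, against 17.3% of all loci. As a share of regions they were close to the background, at 6 of 196 (3.06%, exact 95% binomial interval 1.13 to 6.54), against 2.32% of all regions. The 3 at survival loci and the 3 at death loci differed in their neighbours. For Bcl2 and for the 11-factor region of Bcl2l1 the member was the nearest gene, while the regions at Bid and Bbc3 and the other one at Bcl2l1 were nearest to Mical3, Ccdc9 and Id1. All 6 held Cebpa, Cebpb, Fli1, Gfi1, Lmo2, Lyl1, Runx1, Spi1 and Tal1, and none held Gata2. By definition a region with 10 or more factors lacks few of them, so much of this likeness follows from the threshold. Gata2 was in only 3.63% of regions with 5 or more factors anywhere. The share of each factor over all regions with 10 or more was not counted, so the likeness is not shown to be a trait of the family. Without the Spi1 list the 8 loci held 3 regions with 10 or more factors, and 3 when each list was shortened to the first 50% of its lines.

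The number of factors within 1 kb of a start site overlapped between the groups, at 3, 6 and 7 for Bcl2, Bcl2l1 and Mcl1 and at 8, 1, 2, 0 and 6 for Bcl2l11, Bid, Bax, Bak1 and Bbc3. A peak within 1 kb of a start site was present in 16 of 39 combinations at survival genes (41.0%) and in 17 of 65 at death genes (26.2%), against 14.1% over all genes with a start site in the table. Spi1 had one at all 3 survival genes and 4 of 5 death genes (35.8% of all genes), and Fli1 at all 3 survival genes and 1 of 5 death genes, Bcl2l11 (26.1%). Erg had one at 2 of 3 and 1 of 5 (13.4%), Runx1 at 2 of 3 and 2 of 5 (18.4%), Cebpb at 2 of 3 and 2 of 5 (22.0%), and Cebpa at 1 of 3 and 1 of 5 (20.4%). Lmo2 had one at 1 of 3 and 2 of 5 (20.6%), and Tal1 at 1 of 3 and 1 of 5 (3.52%). Lyl1 had one at Mcl1 alone (2.72%), Gfi1 and Gfi1b at Bcl2l11 alone (8.68% and 7.02%), and Gata2 at no member (2.55%).

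Taken by gene, 7 of the 8 had a peak of some factor within 1 kb of a start site, against 52.3% of 17274 genes with a start site in the table, and 4 had peaks of 6 or more factors, against 9.60%. These were Bcl2l1, Mcl1, Bcl2l11 and Bbc3. The order of survival and death genes was not stable. Within 5 kb of a start site the shares were 46.2% at survival genes and 52.3% at death genes, against 21.6% over all genes, and when each list was shortened to the first 50% of its lines they were 20.5% and 18.5%. The meaning of the line order is not stated, so the shortened lists need not hold the stronger peaks.

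**Figure D4:**
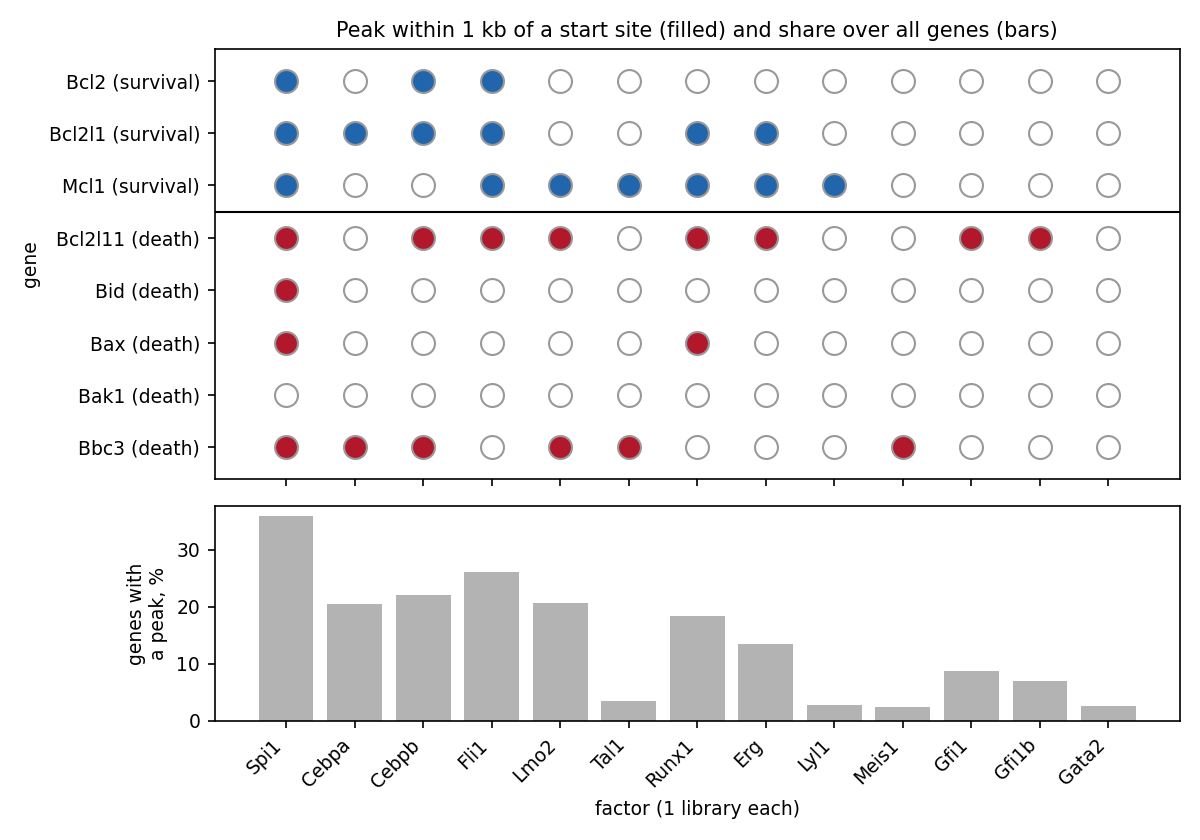
Upper part: a filled circle marks a factor (columns) with a peak within 1 kb of a start site of the gene (rows, survival genes in blue above the line, death genes in red). Lower part: share of 17274 genes with such a peak, in percent. Spi1 is filled at 7 of the 8 genes and Bak1 has no filled circle.

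Over whole loci the order was the other way. A factor had a peak in 33 of 39 combinations at survival loci (84.6%) and in 60 of 65 at death loci (92.3%). The median was 11 factors at survival loci and 13 at death loci. Density had a median of 41.6 peaks per 100 kb at survival loci and 53.2 at death loci, with ranges that overlap (36.6 to 54.6 at survival loci and 38.97 to 57.3 at death loci). Gata2 was at none of the 3 survival loci and 3 of 5 death loci, Gfi1b at 1 of 3 and 4 of 5, Gfi1 at 2 of 3 and 4 of 5, and Meis1 at 3 of 3 and 4 of 5. With so few genes, and with 1 library per factor, no test of these differences was made.

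The order of the shares depended on the flanks, while that of median density did not turn without them. In gene bodies alone the median was 53.3 peaks per 100 kb at survival genes and 79.4 at death genes. With 10 kb on either side it was 43.1 and 56.8. In gene bodies alone a factor had a peak in 76.9% of combinations at survival genes and 52.3% at death genes, against 24.5% over all genes. With 10 kb on either side the shares were 84.6% at survival genes and 70.8% at death genes, against 38.3% over all genes. When only peaks nearest to the member itself were counted, the shares were 84.6% and 69.2%. The median number of such peaks per 100 kb was 31.1 at survival genes and 12.7 at death genes. It was still divided by the length of the whole locus, so peaks that fall to neighbouring genes lower it by construction. Gene bodies made up 46.2% of the length of the survival loci and 14.4% of that of the death loci, against 32.6% over all genes. They held 54.4% and 24.3% of the peaks, against 26.6% over all genes. Of the regions, 51 of 90 lay inside the gene at survival loci (56.7%, exact 95% binomial interval 45.8 to 67.1) and 26 of 106 at death loci (24.5%, 16.7 to 33.8). Of the 51 regions, 31 lay in Bcl2, whose body is 63.8% of its locus. The member was the nearest protein-coding gene for 70.0% of regions at survival loci (59.4 to 79.2) and 33.0% at death loci (24.2 to 42.8). These intervals cover counting error only, and regions of 1 locus are not independent. The shares of regions inside the gene and by nearest gene were not computed over all genes. Shares inside the gene depend on its length, and those by nearest gene on how many neighbours a locus holds. Bcl2, Bcl2l1 and Mcl1 had 1, 3 and 3 other protein-coding genes in their loci. Bcl2l11, Bid, Bax, Bak1 and Bbc3 had 1, 2, 8, 4 and 4.

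Per length and pooled, gene bodies of the 8 genes were more densely bound than their flanks. Pooled over the 8 genes there were 59.1 peaks per 100 kb of gene body and 42.0 per 100 kb of flank, against 14.8 and 19.8 over all genes. Survival genes had 50.1 in the body and 36.0 in the flanks, and death genes 86.5 and 45.6. The body was the denser at Mcl1 (192 against 46.0), Bid (142 against 32.0), Bak1 (79.4 against 55.0), Bcl2l1 (53.3 against 24.0) and Bcl2 (43.7 against 38.0), and at Bbc3, with 131 against 50 peaks in its 100 kb of flank. Bcl2l11 (46.6 against 52.0) and Bax (38.4 against 39 peaks in its 100 kb of flank) did not follow. In short genes these densities rest on few peaks, 12 in Mcl1, 13 in Bbc3, 7 in Bak1 and 2 in Bax. The values over all genes are pooled by length, and the share of all genes with a denser body was not counted. The contrast with all genes is therefore not shown to be a trait of the family.

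**Figure D5:**
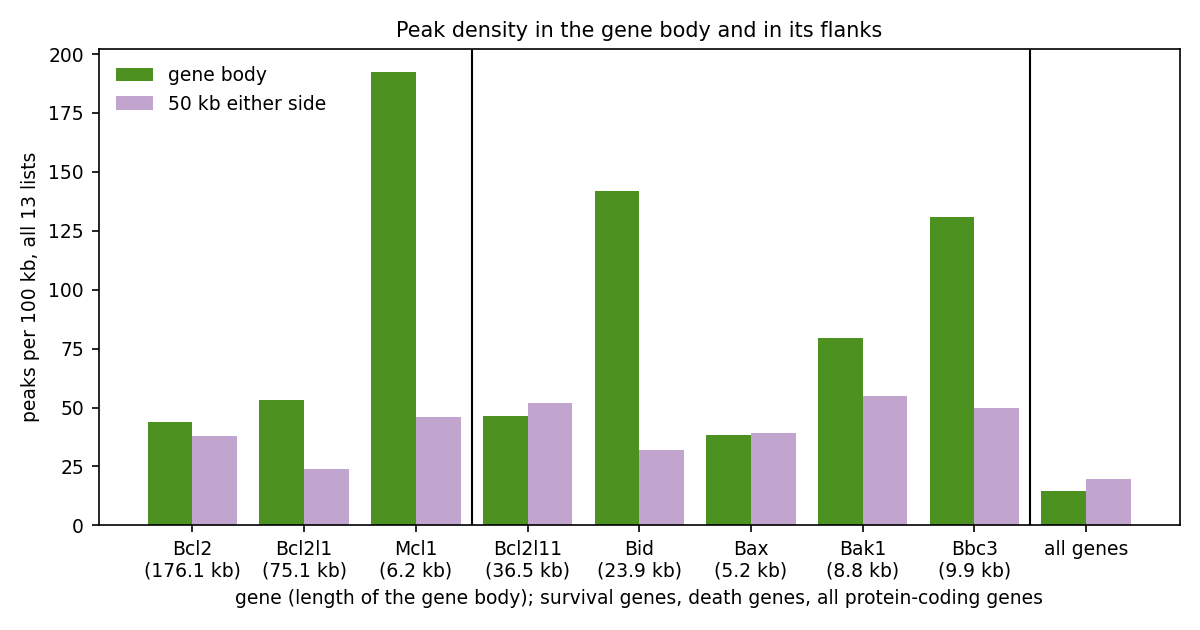
Peaks of all 13 lists per 100 kb in the gene body (green) and in the 50 kb on either side (violet), for the 3 survival genes, the 5 death genes and all protein-coding genes. The body is the denser at 6 of the 8 genes, from 43.7 against 38.0 at Bcl2 to 192 against 46.0 at Mcl1. Pooled by length over all genes it is the less dense, at 14.8 against 19.8. The share of all genes with a denser body was not counted.

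The mix of factors can be set beside that of all lists. Cebpa made up 14.8% of peaks at survival loci and 11.3% at death loci, against 12.5% of all peaks, and Cebpb 15.6% and 11.3%, against 13.5%. Spi1 made up 27.4% and 22.9%, against 27.3%. Runx1 made up 2.95% at survival loci and 6.98% at death loci, against 4.19%, Lmo2 10.1% and 12.3%, against 9.55%, and Tal1 4.64% and 6.98%, against 6.14%. Bcl2 alone held 19 of the 35 Cebpa peaks and 27 of the 65 Spi1 peaks of the survival loci.

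Most peaks at the 8 loci shared their region with another factor. A peak was alone if no other factor lay in its merged region, which was so for 86 of 538 peaks (16.0%, exact 95% binomial interval 12.99 to 19.4), against 24.6% of peaks outside the loci. The 538 peaks lay in 196 regions, and peaks of 1 region or locus are not independent. The intervals here and below therefore understate the error. For Meis1 this was 1 of 16 peaks (6.25%, 0.158 to 30.2), against 41.5% outside. For Spi1 it was 68 of 134 (50.7%, 42.0 to 59.5), against 58.5%, and for Cebpb 3 of 71 (4.23%, 0.880 to 11.9), against 12.3%. No Erg, Fli1, Lyl1 or Runx1 peak stood alone, of 18, 49, 22 and 28, but outside the loci too these were alone in only 0.5002%, 3.64%, 0.327% and 5.19% of cases. Gfi1 lay the other way, with 2 of 19 alone (10.5%, 1.30 to 33.1), against 7.27% outside.

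Regions with 5 or more factors made up 16 of 90 at survival loci (17.8%, 10.5 to 27.3) and 25 of 106 at death loci (23.6%, 15.9 to 32.8), against 12.9% of all regions. The intervals of the groups overlap. Of these 41 regions 37 held Lmo2, 34 Fli1, 33 Cebpb, 32 Cebpa, 30 Spi1 and 25 Tal1. Their shares of 90.2%, 82.9%, 80.5%, 78.0%, 73.2% and 61.0% stood beside 92.0%, 82.5%, 77.4%, 74.1%, 83.9% and 67.0% for regions with 5 or more factors anywhere.

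Related factors often shared a region. Of the Cebpa peaks at the 8 loci 62 of 69 shared a region with Cebpb (89.9%, 80.2 to 95.8), against 82.5% over the whole list, and all 18 Erg peaks shared one with Fli1, against 95.8%. All 22 Lyl1 peaks shared one with Lmo2, against 97.0% over the whole list, and 20 of them with Tal1 (90.9%), against 91.5%. The shares of Erg and Lyl1 were thus near those of their whole lists. Of the Tal1 peaks 29 of 32 shared one with Lmo2 (90.6%, 75.0 to 98.0), against 76.4% over the whole list. Gfi1b shared one with Gfi1 at 10 of 16 peaks (62.5%, 35.4 to 84.8), against 68.9%.

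Other genes of the family had a lower median density than the 8, but Bmf and Pmaip1 were denser than any of the 8. Over 12 further members, which are not the whole rest of the family, a factor had a peak in 107 of 156 combinations (68.6%). Their median was 21.3 peaks per 100 kb. Bmf, a BH3-only gene, held all 13 factors and 97 peaks (80.2 per 100 kb), with 8 factors within 1 kb of a start site. Pmaip1 held 10 factors and 64 peaks (59.8 per 100 kb), with no other protein-coding gene in its locus. Hrk, a BH3-only gene known from neurons, also held all 13 factors but only 22 peaks (18.4 per 100 kb). The BH3-only gene Bad held 12 factors and 57 peaks (51.8 per 100 kb). At the other end Bcl2a1a and Bcl2a1d, survival genes, held no peak, while another copy, Bcl2a1b, held 10 peaks of 10 factors. The 3 are near-identical copies, and the treatment of reads that match several copies is not stated in the labels, so these counts are uncertain.

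Genes of the death pathway outside the family, among them the death receptor adaptor Fadd, the p53 gene Trp53 and genes that act after the mitochondrial step, had a lower median too. Over these 11 genes a factor had a peak in 107 of 143 combinations (74.8%), with a median of 24.0 peaks per 100 kb. Htra2, a mitochondrial protease that antagonises caspase inhibitors, held all 13 factors and 67 peaks (64.9 per 100 kb) in a locus with 9 other genes. Xiap, the caspase inhibitor, held 4 factors and 9 peaks.

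For each survival gene the 2 genes with the closest peak counts were taken. Likeness was the sum of absolute differences in the number of peaks over the 13 factors, with loci that overlap the member left out. Closest to Bcl2 were Slc44a3, at a sum of 10, and Dock10, at 11, against a median of 94 over all genes. As the smallest of 21628 sums they lie below the median by construction. How small such sums are for other genes was not counted, so no particular likeness is shown. Closest to Bcl2l1 were Fbxw11, at 9, and Haao, at 10 (median 46), and closest to Mcl1 were Fkbp15, at 8, and Bcl2l15, at 9 (median 43). Bcl2l15, a Bcl2-like gene by name, was not in the list of further members and held 57 peaks of 11 factors. Counts depend on locus length, which is 173 kb for Slc44a3 and 358 kb for Dock10, against 276 kb for Bcl2.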

How the data were processed

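Binding was measured by ChIP-seq in 13 factor libraries, 1 per factor, grouped by the factor that the labels name. The authors deposited peak positions in base pairs, with no score, height or count. The submitters' processing notes name bedtools, Bowtie2 and MACS2 as tools and mm10 and GRCm38 as builds. Tool versions, peak thresholds and any role of the IgG library were not given in the sources used here. Depth is unknown, which limits any comparison of list lengths.

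Peaks on chromosome X and the 19 autosomes were used, leaving out 3 mitochondrial lines. Boundaries came from the RefSeq table of GRCm38.p6, which has no exons, so exonic, intronic and untranslated positions were not told apart. Start sites, strands and promoter sequences came from the RefSeq promoter table of the same build, which covers 17274 of the genes. First and outermost start sites, and counts within 1 kb, refer to the start sites listed there. At Bbc3, Mcl1 and Bcl2l1 the gene boundary lies more than 1 kb before the first listed start site. Coordinates count from 1. Letters searched on both strands, with their share of promoter windows, were CGGAAG for ETS factors (17.0%), GAGGAAG for PU.1 (13.4%), TTGCNNAA for C/EBP factors (10.9%), TGTGGT for Runx1 (16.6%), AGATAA for Gata2 (11.2%), the E-box CAGNTG (51.4%), TGACAG for Meis1 (18.9%) and AATCACNGC for Gfi1 (0.926%). The ETS and PU.1 letters end alike, but no site holds both.

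Shares of peaks and regions have exact (Clopper-Pearson) 95% intervals. These treat peaks and regions as independent, which those of 1 locus are not. Counting and merging were checked on simulated peaks. Named regions are the one with the most factors at each gene and all with 10 or more. From each further gene list the 3 with the most factors and the 1 with the fewest are named, and for each survival gene the 2 closest in peak counts. Some genes taken by this rule were left out of the text. Regions and genes beyond these were picked after their values were seen. The members and lists were chosen with earlier results of these data known. Alternatives changed the window, the assignment, the merging, the thresholds and the lists. Python 3.11.15, numpy 2.4.6, pandas 2.3.3 and scipy 1.17.1 were used.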

Additional observations from a re-analysis of the deposited data

How the results depend on the processing

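Values are for survival genes, then death genes, unless stated. The median of 12 factors over the 8 members fell to 7.5 in gene bodies alone. The share of combinations differed by -7.69 percentage points (survival minus death). It was reversed with 10 kb on either side (13.8), in gene bodies alone (24.6) and for peaks nearest to the member (15.4), and it was -3.33 without the Gata2 list and -17.4 in an equal 100 kb window on the first start site, which was chosen after the data were seen. The death share of 92.3% was 70.8%, 52.3% and 69.2% under those that reversed it. The difference in median density of -11.6 peaks per 100 kb was -26.1 in gene bodies and -24.0 in the equal window. It was reversed to 18.3 for peaks nearest to the member, where the death median was 12.7. That setting still divided by the length of the whole locus. With the first 50% of the lines the medians were 24.6 and 34.7. Regions with 10 or more factors (6 in all, 3 and 3) numbered 1 (1 and 0) with 10 kb and likewise in gene bodies, 3 (2 and 1) with the first 50% of the lines, 3 (1 and 2) without Spi1, 2 (2 and 0) for nearest regions and 4 (1 and 3) in the equal window. With 8 or more factors there were 12 (5 and 7). Combinations with a peak near a start site (33 within 1 kb, a difference of 14.9 points) numbered 52 within 5 kb, where the difference was reversed to -6.15 and the death share was 52.3%, and 20 with the first 50% of the lines, where the difference was 2.05 and the survival share 20.5%. Within 500 bp the death share was 15.4%. The causes of these shifts were not tested, beyond the fewer peaks or shorter windows that the settings themselves impose. No paired analysis was possible because each factor has 1 library. No replicate could be left out for the same reason.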
